A study of Homo sapiens with 10 samples.

Results

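Monocytes, macrophages and neutrophils meet bacteria, dying cells and lipids through a set of surface receptors, and 10 genes for such receptors, chosen by symbol, are described here. The choice was made with earlier results of these data known. Shares of all genes set beside counts of the 10 are therefore a background and no test. All 10 were among the 17687 genes measured. They were CD14, TLR2 and TLR4, FPR1 and FPR2, ITGAM, CD36, CD68, VNN2 and ADGRE3, each read by 1 probe set. RNA came from HL60, an acute myeloid leukaemia line, MDSL and SKM1, lines from myelodysplastic syndrome, and K562, a chronic myeloid leukaemia line. Each line gave 1 untreated array and 1 array after 96 hours with OR21, the compound OR-2100, a hypomethylating agent by the series' own description. The dose was 500 nM in HL60 and K562 and 100 nM in MDSL and SKM1. A further pair of arrays came from HL60 derivatives labelled AZA resistant and OR21 resistant, both given as controls without OR21. HL60 and its resistant form were grown in Iscove's medium with 20% serum, SKM1 in RPMI-1640 with 10% serum, and MDSL in RPMI-1640 with 10% serum, 50 μM 2-mercaptoethanol and 100 U/mL IL-3. No medium is given for K562, and no label says whether a derivative is 1 clone. Every condition had a single array, so differences within a line have no replicate check.

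CD14 binds bacterial lipopolysaccharide and hands it to TLR4, while TLR2 recognises bacterial lipoproteins. FPR1 and FPR2 sense formylated peptides from bacteria and mitochondria and guide phagocytes toward them. ITGAM is the alpha chain of the integrin CD11b/CD18, CD36 a scavenger receptor for oxidised lipids, and CD68 a glycoprotein found mostly in macrophage lysosomes. VNN2 is a membrane-anchored pantetheinase of leukocytes, and ADGRE3 an adhesion G protein-coupled receptor of myeloid cells. Cells of the HL60 line can be driven toward granulocytes or monocytes in culture. The DNA methylation that hypomethylating agents lower sits mostly on cytosines that stand before a guanine.

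Because the compound belongs to that class, the CG pairs just upstream of these genes are shown first, for 4 genes with the largest HL60 differences and for TLR2, which differed least there. RefSeq promoter windows (GRCh38.p14) were found for all 10 genes, 16 windows in all. Each line below gives the 250 bases before the transcription start, 5′ to 3′ along the gene, with CG pairs in capitals.

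CD14 chr5:140633176-140633425 (- strand): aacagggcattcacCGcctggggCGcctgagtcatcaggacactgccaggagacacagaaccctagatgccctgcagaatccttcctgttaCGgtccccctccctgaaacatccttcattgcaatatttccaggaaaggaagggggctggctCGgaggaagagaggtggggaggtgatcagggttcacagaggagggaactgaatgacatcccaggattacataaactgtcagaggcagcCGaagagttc
FPR1 chr19:51751879-51752128 (- strand): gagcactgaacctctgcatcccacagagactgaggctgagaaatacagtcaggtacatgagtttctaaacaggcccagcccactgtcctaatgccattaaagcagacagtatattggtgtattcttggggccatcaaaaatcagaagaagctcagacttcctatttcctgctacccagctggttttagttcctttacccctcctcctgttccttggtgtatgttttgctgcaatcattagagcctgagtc
VNN2 chr6:132763456-132763705 (- strand): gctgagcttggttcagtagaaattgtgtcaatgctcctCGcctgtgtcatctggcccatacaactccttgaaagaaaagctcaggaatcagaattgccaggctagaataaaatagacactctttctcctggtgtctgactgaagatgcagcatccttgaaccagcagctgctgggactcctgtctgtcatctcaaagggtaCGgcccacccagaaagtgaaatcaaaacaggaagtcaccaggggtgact
ADGRE3 chr19:14674845-14675094 (- strand): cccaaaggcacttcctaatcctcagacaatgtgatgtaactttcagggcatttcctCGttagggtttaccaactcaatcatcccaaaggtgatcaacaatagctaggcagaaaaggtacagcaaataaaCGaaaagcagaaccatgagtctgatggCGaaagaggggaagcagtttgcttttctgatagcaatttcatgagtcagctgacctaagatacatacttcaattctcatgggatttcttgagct
TLR2 chr4:153684030-153684279 (+ strand): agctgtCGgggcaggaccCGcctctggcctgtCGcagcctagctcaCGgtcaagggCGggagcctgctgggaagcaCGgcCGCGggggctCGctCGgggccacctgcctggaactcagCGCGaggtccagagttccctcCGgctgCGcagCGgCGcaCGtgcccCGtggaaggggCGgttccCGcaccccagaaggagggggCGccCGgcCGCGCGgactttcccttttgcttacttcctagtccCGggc

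The FPR1 window held 0 CG pairs, VNN2 2, ADGRE3 3 and CD14 5, against 26 in TLR2. Among windows not shown, that of TLR4, next to TLR2 in having a small HL60 difference, held 5. Those of CD68 and ITGAM held 1 and 2, and those of FPR2 held 4 and 3. A relation of CG pairs to the differences was not tested. The median over all 35116 promoter windows of this length was 11. Across the 16 windows of the 10 genes the count ran from 0 to 26 with a median of 2, and 10 windows had at most 2. Of the 10 genes 8 had 1 window each, so these counts weigh CD36, with the most windows, several times. The CD36 windows, some of them overlapping, each held 1 or 2 CG pairs. The letters GAGGAA, the core bound by the myeloid factor PU.1, were searched on both strands and stood in at least 1 window of 6 of the 10 genes. They stood in 8 of the 16 windows, several of them those of CD36, against 23.6% of all windows. In CD14 they began at position -96, counted back from the start. The letters TTGCNNAA, read by C/EBP factors, stood in 1 of the 16 windows, that of CD68, against 9.05% of all windows. The arrays carry no methylation measurement, so these letters describe the windows only.

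Hybridisation spikes, added to every array, averaged 11.71 log2 for treated HL60 and 10.85 to 11.10 elsewhere, so means over the lines are also given without HL60. Gene medians lay between 6.63 and 7.05 log2. The 23 background probes of each array had medians of 4.98 to 5.43 and 75th percentiles of 6.59 to 6.69, and a value below them is only a bound. Line identity showed in markers. The 4 primary granule genes measured were all above the gene median on the HL60, MDSL and SKM1 control arrays, and 0 of 4 were in K562. The summed intensity of 7 erythroid genes was 16.33 log2 in K562 controls, against 8.03 to 8.59 in the other 3 lines. Bulk arrays cannot separate more cells with a receptor from more RNA per cell.

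In untreated cells the 10 receptor genes followed the line. Of the 10, 6 lay above the array's gene median on each of the HL60, MDSL and SKM1 arrays, and 1 did on the K562 array. In K562, 9 of the 10 were at or under the 75th percentile of background, with CD68 as the exception at 8.19 log2. TLR4 stood at 10.98 log2 in SKM1, 10.82 in HL60, 9.30 in MDSL and 4.09 in K562. TLR2 stood at 9.17 in SKM1, 7.97 in HL60, 4.73 in MDSL and 4.35 in K562, so the last pair lay under background. CD14 was brightest in HL60 at 7.64 and lay between 5.86 and 6.26 in the others, inside the background range. ITGAM and ADGRE3 were brightest in MDSL, at 9.83 and 9.97, the first against 5.98 to 7.43 and the second against 4.46 to 5.08 elsewhere. VNN2 was under the background median in all 4 untreated lines, at 3.77 to 4.82. With 1 array per line, no spread is available to judge neighbours in these orders.

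**Figure D1:**
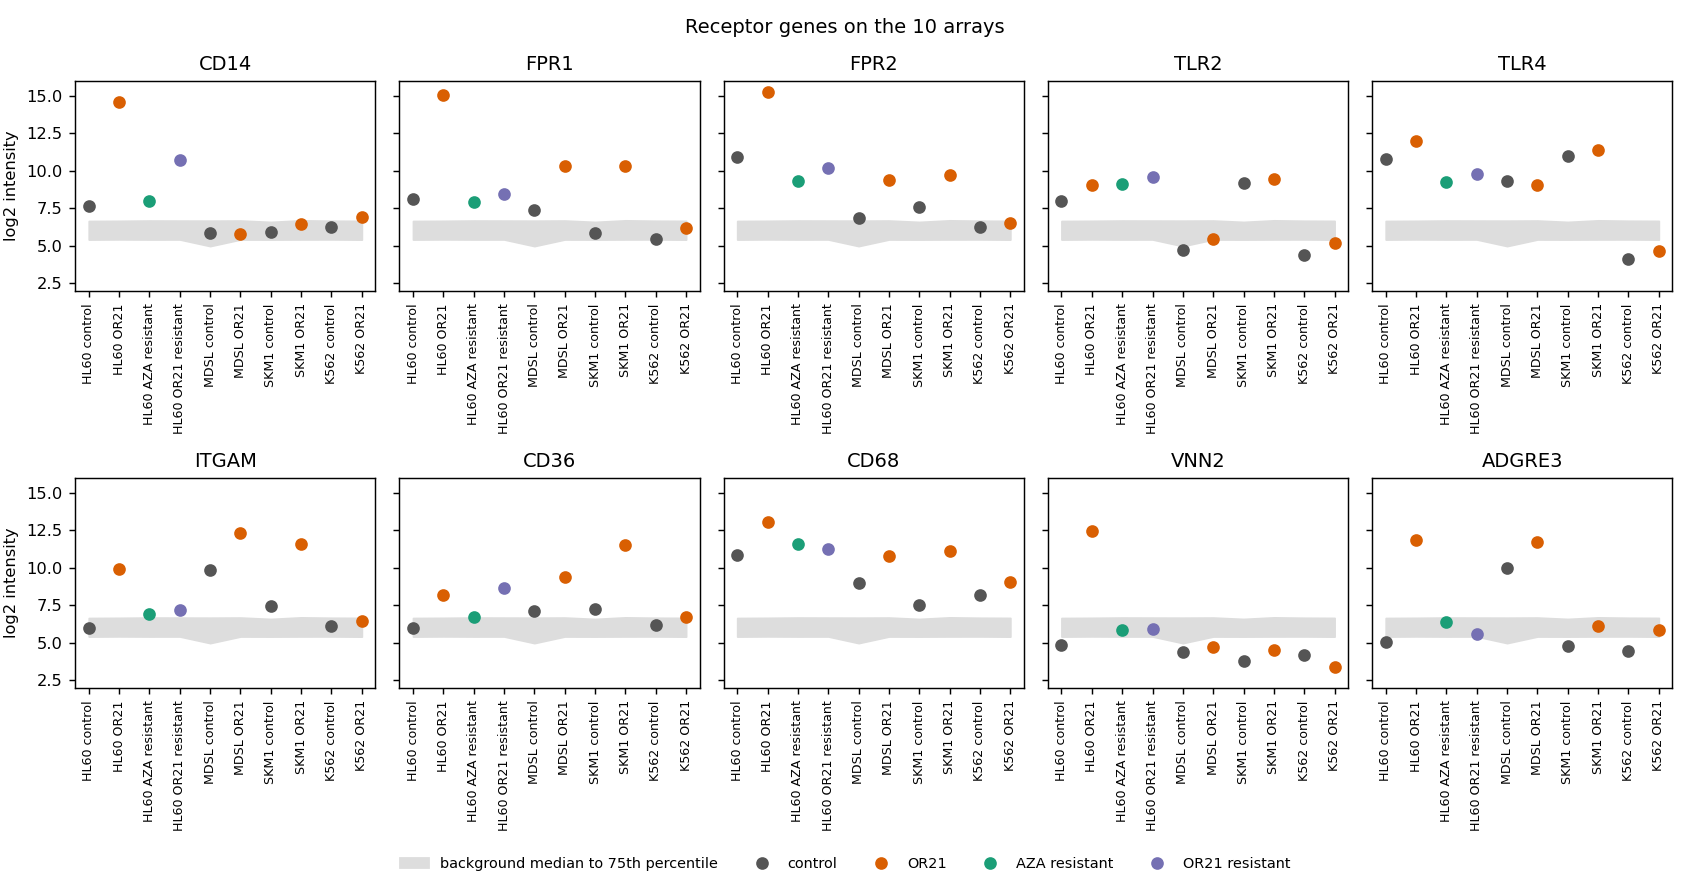
Log2 intensity of the 10 receptor genes on each of the 10 arrays, 1 point per array; the grey band runs from the median to the 75th percentile of the background probes. Treated HL60 is the highest array for 7 of the 10 genes, with no share of all genes taken, and in K562 controls CD68 alone lies above the band.

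OR21 was followed by higher receptor values on the treated HL60 array. All 10 genes were at least 2-fold higher there, a mark passed by 10.2% of all genes, with a median of 4.12 log2 against -0.05 over all genes, and 0 were 2-fold lower, against 11.1% of all genes. In MDSL 6 of 10 passed that mark (6.62% of all genes), in SKM1 6 of 10 (7.1%) and in K562 1 of 10 (5.05%). Medians of the 10 genes were 1.74, 1.72 and 0.62 log2 in these lines. None of the 10 was 2-fold lower in MDSL, SKM1 or K562 either, against 4.88%, 4.47% and 3.86% of all genes. FPR1, FPR2, ITGAM, CD36, CD68 and ADGRE3 were 2-fold higher in HL60, MDSL and SKM1 alike, 6 of 10 against 1.63% of all genes. The SKM1 count was 5 with either background floor or the log offset, where ADGRE3 differed by 0.11 to 0.75. CD14, TLR2, TLR4 and VNN2 passed the mark in HL60 and no other line, 4 of 10 against 4.8%. The HL60 difference was the highest of the 4 lines for 7 genes, against 25.2% of all genes, and the K562 difference the lowest for 6, against 24.1%. HL60 and K562 received the same 500 nM, so the gap between them was at 1 dose, while line and dose cannot be told apart between this pair and MDSL and SKM1 at 100 nM.

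Over the 4 lines, 0 of the 10 genes passed the threshold of 0.05 on the adjusted p in limma, which 0.0396% of all genes did. At an unadjusted p under 0.05 there were 7 of 10, against 19.1% of all genes in either direction and 8.98% upward. All 10 had a positive mean, for which no share of all genes was taken, with a median of 2.22 log2 against -0.02 over all genes. Values of treated and untreated lines overlapped for 10 of 10, as for nearly all genes, since 1.38% of all genes had every treated line above every untreated one. In 7 genes every line was higher after OR21, against 12.2% of all genes. With values raised to the 75th percentile of background, the K562 differences of FPR1, FPR2, TLR2, ITGAM and ADGRE3, 5 of these 7, were -0.01, as was the K562 median of the 10. With arrays scaled to the hybridisation spikes, in which treated HL60 stood apart, 6 of the 10 and 240 genes in all passed, in place of 7.

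**Figure D2:**
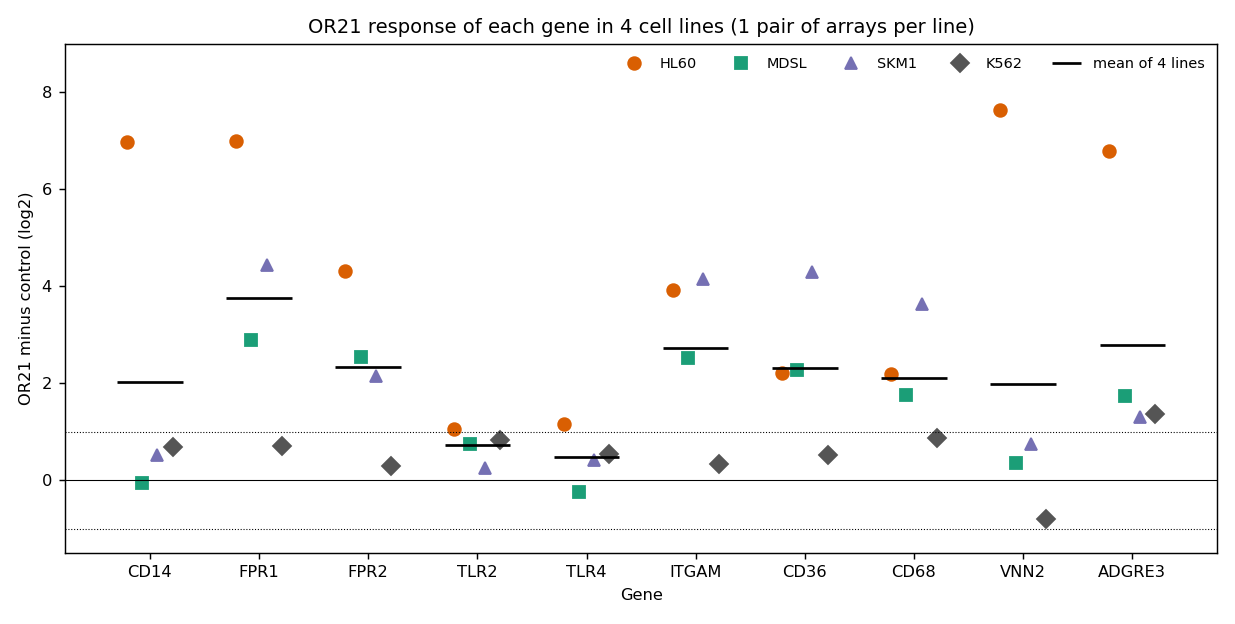
Difference between the OR21 and the control array of each line in log2, 1 point per line and gene, with the mean of the 4 lines as a bar and dotted lines at 2-fold. HL60 stands far above the other lines for CD14, VNN2 and ADGRE3, while SKM1 is highest for ITGAM, CD36 and CD68.

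CD14 and TLR4, the co-receptor and the signalling receptor for lipopolysaccharide, differed most in HL60, as did TLR2. CD14 read 7.64 log2 untreated and 14.60 with OR21 for HL60 cells, 5.86 and 5.80 for MDSL cells, 5.92 and 6.44 for SKM1 cells, and 6.26 and 6.95 for K562 cells. Among these 8 arrays only treated HL60 was bright, and this difference of 6.97 log2 was the 10th highest of all genes in that line as deposited. The 4-line mean was 2.03 ± 3.31 log2 (SD, n = 4 lines, limma adjusted p = 0.389), and 0.38 ± 0.40 without HL60. TLR4 read 10.82 log2 untreated and 11.97 with OR21 for HL60 cells, 9.30 and 9.05 for MDSL cells, 10.98 and 11.39 for SKM1 cells, and 4.09 and 4.64 for K562 cells. TLR4 was bright in HL60, MDSL and SKM1 with and without OR21 and under background in K562, with a mean of 0.47 ± 0.57 (limma adjusted p = 0.374), and 0.24 ± 0.42 without HL60. TLR2 read 7.97 log2 untreated and 9.03 with OR21 for HL60 cells, 4.73 and 5.47 for MDSL cells, 9.17 and 9.43 for SKM1 cells, and 4.35 and 5.18 for K562 cells. It had the smallest SD among the 10, at 0.72 ± 0.34 (limma adjusted p = 0.150), and 0.61 ± 0.31 without HL60. TLR2 was at background in MDSL and K562, and its 4-line mean was 0.45 with values raised to the background median and 0.33 with the higher floor. With the spike scaling the HL60 differences were 0.30 for TLR2 and 0.39 for TLR4, so both then lay under 2-fold.

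The formyl peptide receptors were higher in 3 lines. FPR1 read 8.09 log2 untreated and 15.08 with OR21 for HL60 cells, 7.39 and 10.29 for MDSL cells, 5.87 and 10.30 for SKM1 cells, and 5.46 and 6.15 for K562 cells. Of the 10 genes it had the highest mean, 3.75 ± 2.65 (SD, n = 4 lines, limma adjusted p = 0.129), and 2.68 ± 1.88 without HL60. FPR2 read 10.94 log2 untreated and 15.27 with OR21 for HL60 cells, 6.85 and 9.40 for MDSL cells, 7.56 and 9.70 for SKM1 cells, and 6.23 and 6.52 for K562 cells. Its mean was 2.32 ± 1.66 (limma adjusted p = 0.136), and 1.66 ± 1.21 without HL60. Both stayed close to background in K562, with differences of 0.70 and 0.29.

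The integrin chain, the scavenger receptor and the lysosomal glycoprotein had their largest differences in SKM1. ITGAM read 5.98 log2 untreated and 9.90 with OR21 for HL60 cells, 9.83 and 12.36 for MDSL cells, 7.43 and 11.58 for SKM1 cells, and 6.14 and 6.46 for K562 cells. CD36 read 6.00 log2 untreated and 8.21 with OR21 for HL60 cells, 7.12 and 9.39 for MDSL cells, 7.26 and 11.55 for SKM1 cells, and 6.19 and 6.71 for K562 cells. The CD36 differences of HL60 and MDSL lay close together as deposited, at 2.20 and 2.27. The HL60 controls of CD36 and ITGAM lay under the 75th percentile of background. With values raised to it, the HL60 differences were 1.56 for CD36, against 2.27 in MDSL, and 3.26 for ITGAM. CD68 read 10.88 log2 untreated and 13.08 with OR21 for HL60 cells, 9.01 and 10.77 for MDSL cells, 7.52 and 11.15 for SKM1 cells, and 8.19 and 9.06 for K562 cells. Means were 2.73 ± 1.76 for ITGAM (SD, n = 4 lines, limma adjusted p = 0.124), 2.32 ± 1.54 for CD36 (limma adjusted p = 0.127) and 2.11 ± 1.16 for CD68 (limma adjusted p = 0.116). Without HL60 they were 2.34, 2.36 and 2.09. ITGB2, the beta chain that pairs with ITGAM, had differences of 2.82 for HL60 and 1.53 for SKM1, but -0.08 for MDSL and -0.17 for K562.

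VNN2 and ADGRE3 came up from background in HL60. VNN2 read 4.82 log2 untreated and 12.46 with OR21 for HL60 cells, 4.37 and 4.72 for MDSL cells, 3.77 and 4.52 for SKM1 cells, and 4.20 and 3.40 for K562 cells. Apart from treated HL60, each of these values was under the background median of its array. The HL60 difference was 7.65 log2 as deposited, 7.05 with values raised to the background median and 5.81 with values raised to the 75th percentile of background. ADGRE3 read 5.08 log2 untreated and 11.86 with OR21 for HL60 cells, 9.97 and 11.70 for MDSL cells, 4.81 and 6.11 for SKM1 cells, and 4.46 and 5.82 for K562 cells. The treated HL60 array thus came to the level of treated MDSL. The HL60 control lay under the background median, and the difference of 6.78 log2 as deposited was 6.45 with the floor at the background median and 5.21 with the higher floor. ADGRE3 was also the 1 member at least 2-fold higher in all lines as deposited, but values in SKM1 and K562 lay under the 75th percentile of background. Raised to it, the SKM1 difference was 0.11 and the K562 difference -0.01. Means were 1.98 ± 3.83 for VNN2 (SD, n = 4 lines, limma adjusted p = 0.466) and 2.79 ± 2.67 for ADGRE3 (limma adjusted p = 0.189). Without HL60 they were 0.10 ± 0.80 and 1.47 ± 0.23.

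The resistant HL60 derivatives, which share the parental control array, differed from it in both directions, without treatment. Of the 10 genes, 3 were at least 2-fold higher in the AZA resistant derivative than in parental HL60 (7.04% of all genes) and 2 were 2-fold lower (5.11%). In the OR21 resistant derivative 5 were 2-fold higher (7.69%) and 1 was 2-fold lower (4.27%). Medians were 0.71 and 0.82 log2, against -0.02 and -0.07 over all genes. With values raised to the 75th percentile of background they were 0.06 and 0.39. FPR1, the gene with a 6.99 log2 difference after treatment, stood at 7.90 and 8.46 log2 in the AZA and OR21 resistant cells, beside 8.09 in the parental control. VNN2 stood at 5.86 and 5.92 and ADGRE3 at 6.36 and 5.62, all inside the background range. Both derivatives read above the parental control for 7 genes (35.0% of all genes) and below it for 2 (42.2%). Treated parental cells were above both derivatives for 8 genes, a count for which the share of all genes was not taken. The exceptions were TLR2, at 9.10 and 9.57 in the derivatives against 9.03 in treated cells, and CD36.

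FPR2 and TLR4 went the other way. FPR2 stood at 9.34 log2 in AZA resistant and 10.18 in OR21 resistant cells, against 10.94 in the parental control and 15.27 after OR21. TLR4 stood at 9.26 and 9.80, against 10.82 and 11.97. Both were therefore lower in both derivatives than in parental HL60 and higher after treatment. TLR4 differed by -1.55 in AZA resistant and -1.01 in OR21 resistant cells, and FPR2 by -1.60 and -0.76. CD68 and ITGAM lay above the parental control in both derivatives, with differences of 0.41 to 0.70 and 0.92 to 1.23.

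**Figure D3:**
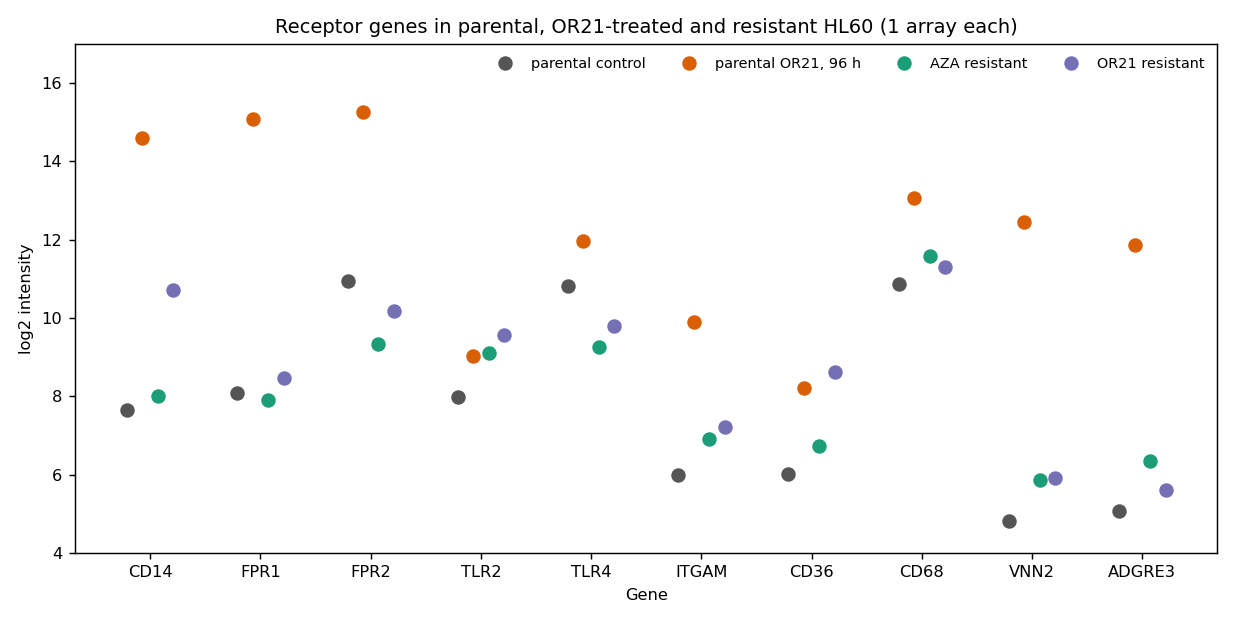
Log2 intensity of the 10 genes on the 4 HL60 arrays, 1 point per array. Treated parental cells are highest for 8 genes, with no share of all genes taken. The OR21 resistant point lies clearly above the AZA resistant one for CD14 and CD36.

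The derivatives differed from each other mainly in CD14 and CD36. CD14 stood at 8.01 log2 in AZA resistant and 10.70 in OR21 resistant cells, a difference of 2.69 and 6.47-fold, which was the 2nd highest of 17687 genes. CD36 stood at 6.73 and 8.63, a difference of 1.90 and the 9th highest. CD36 in OR21 resistant cells was also above the 8.21 of treated parental cells, whereas CD14 was below its treated level of 14.60. These were the 2 members at least 2-fold higher in OR21 resistant than AZA resistant cells, a mark that 0.678% of all genes passed, and 0 members were 2-fold lower (0.888%). OR21 resistant cells read higher for 8 of the 10, against 49.6% of all genes. The other 8 genes differed by -0.74, for ADGRE3, to 0.84, for FPR2. CD14 kept a difference of 2.55 to 2.71 and CD36 of 1.63 to 1.92 under the alternative scalings, floors and log offset tried. The other 8 genes of the highest 10, named after their values were seen, were FAM9C (3.01 log2), LPAR3 (2.39), SPP1 (2.05), VSIG4 (1.98), SIGLEC9 (1.96), VCAN (1.95), LGI2 (1.94) and SGK1 (1.90).

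**Figure D4:**
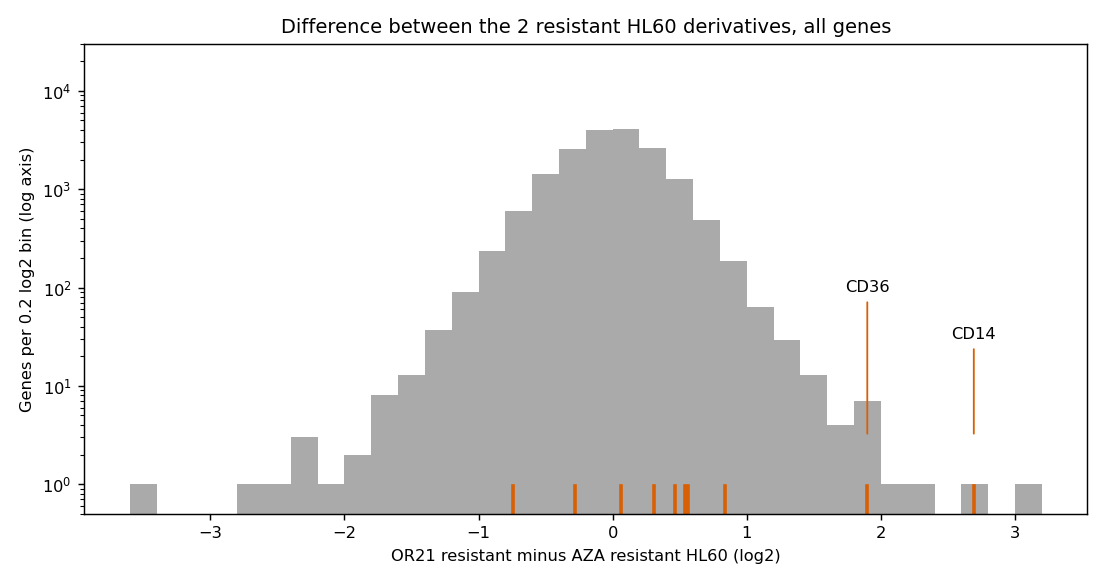
Histogram of the difference between OR21 resistant and AZA resistant HL60 over 17687 genes in 0.2 log2 bins, on a log axis of gene counts, with the 10 receptor genes as orange ticks. CD14 at 2.69 and CD36 at 1.90 lie in the upper end, and the other 8 between -0.74 and 0.84.

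Genes that work with these receptors were read from lists that did not include the 10. Over the 4 lines 0 genes of any list passed the limma threshold, against 0.0396% of all genes. For the counts of positive means below, no share of all genes was taken. Among TLR co-receptors and signalling genes, 8 of 10 measured had a positive mean, with a median of 0.35 log2. IRAK2, a kinase of the TLR pathway, had a mean of 1.66 ± 0.42 (SD, n = 4 lines, limma adjusted p = 0.0925). It lay under the background median on all 4 control arrays, at 4.57 to 4.86 log2. With OR21 it read 6.24 for HL60, 5.69 for SKM1 and 6.44 for K562 cells, still under the upper quartile of background. Treated MDSL, at 6.98, was above that quartile. The adaptor MYD88 had a mean of 1.39 ± 0.95. LY96, which binds lipopolysaccharide on TLR4, had differences of 1.92 for HL60, 0.75 for MDSL, 1.96 for SKM1 and -0.93 for K562, from levels near background. CD180, a TLR-like receptor, stood at 12.24 and 12.74 log2 in AZA and OR21 resistant cells, against 6.13 in the parental control and 7.11 after OR21. Of 8 other Toll-like receptors 5 had a positive mean, with TLR8 at 1.66 ± 1.87 and TLR1, a partner of TLR2, at 1.47 ± 1.33.

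Other receptor classes of phagocytes had mostly positive means too. Fc and inhibitory receptors had a positive mean in 12 of 12, with medians of 2.56 log2 for HL60, 0.72 for MDSL, 1.51 for SKM1 and -0.01 for K562. FCER1G, the shared Fc receptor signalling chain, differed by 3.05, 2.08, 3.45 and 2.14 in these lines. The mean was 2.68 ± 0.68 (SD, n = 4 lines, limma adjusted p = 0.0708). In K562 it read 3.84 log2 untreated and 5.98 with OR21, both under the upper quartile of background, so the K562 difference rests on background-level values. TREM1, an amplifier of inflammatory signals, differed by 5.77 in HL60 and 3.90 in SKM1 but 0.28 in MDSL. Chemoattractant receptors had a positive mean in 11 of 12, with a median of 1.41 and with the complement receptor C5AR1 at 5.98 in HL60. Scavenger and lectin receptors did so in 11 of 15, with a median of 0.32. OLR1 and CLEC7A, receptors for oxidised lipoprotein and for fungal glucans, differed by 5.04 and 4.56 in HL60 and by 3.67 and 3.96 in SKM1. Integrin and adhesion genes had a positive mean in 7 of 7, with ITGAX, another partner of ITGB2, at 1.86 ± 1.55. The 5 other vanin and adhesion receptor genes all did too, with VNN1 at 1.79 ± 0.97 (limma adjusted p = 0.119). VNN1 was under the background median on all 4 control arrays, at 3.95 to 4.88 log2. With OR21 it stayed under the upper quartile of background in SKM1, at 5.60, and in K562, at 4.91. It was above that quartile in treated HL60, at 7.23, and treated MDSL, at 6.77. Over all genes the means of the 4 lines had a median of -0.02.

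Transcription factors of the myeloid lineage had a positive mean in 7 of 10. Their median was 0.18 log2 over the lines, with -0.09 for HL60, -0.02 for MDSL, 0.48 for SKM1 and 0.00 for K562. SPI1, the gene for PU.1, named after its values were seen, stood at 12.05 and 11.97 log2 in control and treated HL60 and at 7.51 and 7.35 in K562. EGR1 had the largest mean, 1.89 ± 1.94 (SD, n = 4 lines, limma adjusted p = 0.214). In both derivatives IRF8, a monocyte factor, was higher than in parental HL60 by 3.66 and 3.62, and CEBPE, a granulocyte factor, was lower, at -3.07 and -3.86.

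**Figure D5:**
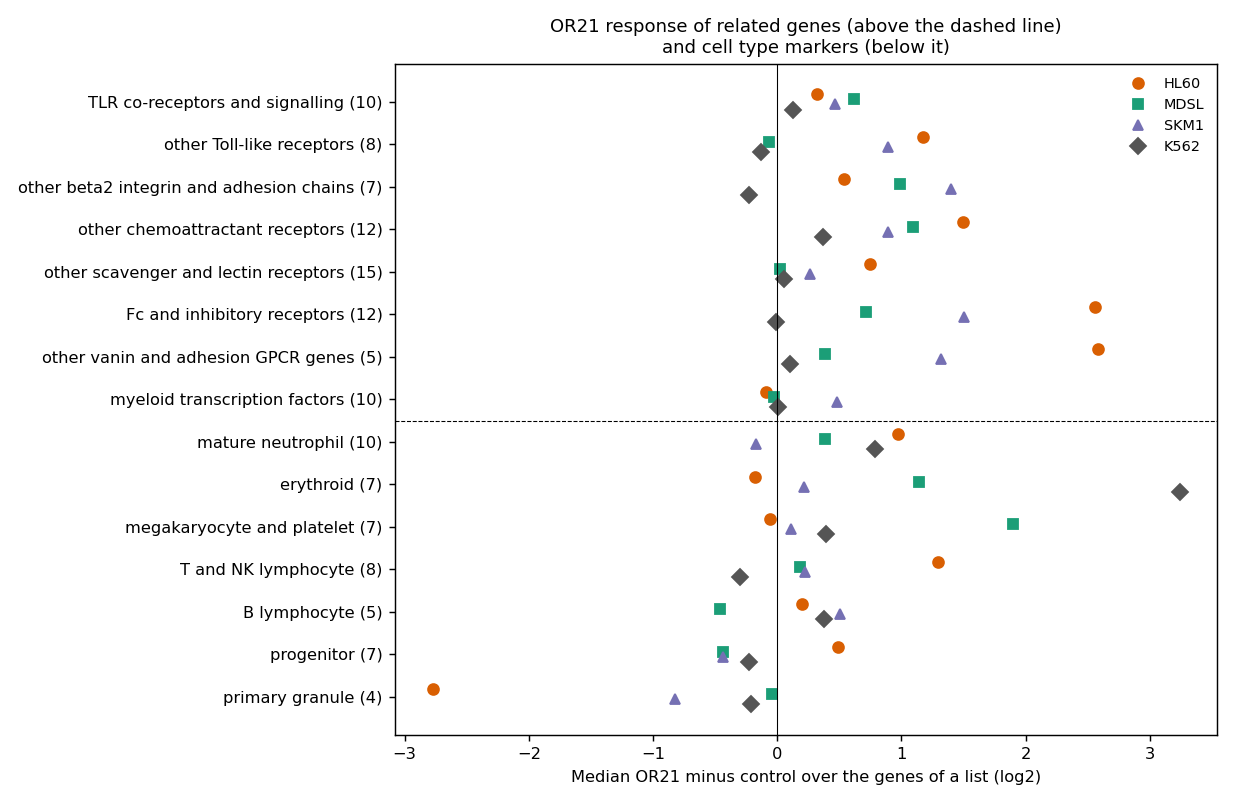
Median OR21 difference in log2 over the measured genes of each list, 1 point per line, with the number of genes in parentheses. Fc receptors and vanin genes are highest in HL60, while erythroid markers are highest in K562 and platelet markers in MDSL.

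Several of the 10 genes are also expressed by neutrophils, so markers of other cell types were read beside them. Of 10 mature neutrophil markers 5 were at least 2-fold higher in treated HL60, against 10.2% of all genes, with a list median of 0.97 log2. FCGR3B, a neutrophil Fc receptor, differed by 6.40 there and by -0.45 to 0.66 in the other lines, while CAMP, a granule peptide, differed by 2.15 in HL60 and 2.21 in MDSL. FCGR3A, from the Fc receptor list and named after its values were seen, differed by 6.31 in HL60 and by -0.10 to 0.28 elsewhere. Whether the probe sets tell FCGR3A and FCGR3B apart was not tested. Of the neutrophil list, CEACAM8, LTF, MMP8, ALPL and CXCR2, also named afterwards, differed by -0.15 to 0.53 in HL60. The summed intensity of the list went from 10.04 to 12.88 in HL60, with 8 and then 6 of the 10 under the 75th percentile of background. Primary granule genes were at least 2-fold lower in 4 of 4 in treated HL60, against 11.1% of all genes, with a median of -2.78. Platelet markers, whose lineage also carries CD36, had a median of 1.90 in MDSL and -0.06 in HL60, and the MDSL sum went from 13.65 to 15.41. Erythroid markers had a median of 3.24 in K562, where the 10 genes had 0.62, and of 1.14 in MDSL, where the 10 genes had 1.74. In MDSL 4 of 7 erythroid markers were at least 2-fold higher, against 6.62% of all genes, with the globin gene HBA1 at 5.75. B lymphocyte markers had medians of -0.46 to 0.51 and T and NK lymphocyte markers of -0.30 to 1.30 in the 4 lines. The T and NK median was highest in HL60, where 5 of 8 markers were at least 2-fold higher, against 10.2% of all genes. Of these 8, 7 lay under the 75th percentile of background in untreated HL60 and 5 in treated HL60. Progenitor markers had medians of -0.44 to 0.49, with the receptor kinase FLT3 at -2.28 ± 1.74 over the lines. The part of these cell programmes in the receptor differences was not tested.

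Across the 10 arrays the 10 genes did not form 1 block. Pearson r over the 45 pairs ran from -0.17 to 0.92 with a median of 0.49, and the highest was that of CD14 with VNN2. These arrays share lines and the bright treated HL60 array. Without that array the range was -0.42 to 0.84 with a median of 0.43, the pair CD14 and FPR1 went from 0.73 to 0.12, and ITGAM with CD36 stayed at 0.81. The genes most like the mean profile of the 10, among 3357 genes with an SD of at least 1 log2, were C18orf32 (r = 0.96), GPR65 (0.96), GAS7 (0.95), SERPINA1 (0.95), MCEMP1 (0.95) and MGAM (0.94). Without treated HL60 their r was 0.86 to 0.99. Those most like CD14 alone were PNOC, SIRPG and COLEC12 (each 0.94) and LINC01599 (0.92), with r of 0.67 to 0.88 without treated HL60.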

How the data were processed

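Biotin-labelled RNA was hybridised to 10 arrays, 1 per condition, per the labels' protocols. The deposited table held 24351 rows of linear intensity, from 4.25 to 405294, made by the authors. The software, background correction and normalization are not given in the sources used here. Gene medians of the arrays lay between 6.63 and 7.05 log2. The log2 was taken with no pseudocount and no further scaling, and other scalings were run as alternatives. A platform annotation named 17709 probe sets, and RefSeq updated 0 symbols. For the 20 genes with several probe sets the brightest was kept. 0 columns belonged to no sample.

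OR21 responses were fitted over all genes with limma 3.58.1 (R 4.3.3) on 8 arrays in a two-sided test with a term for each cell line, which pairs the arrays, and Benjamini-Hochberg adjustment. No label names separate cultures, so p-values measure the spread between these lines. The fit was tested on simulated data. Single comparisons are sizes with no test. The 10 genes and the lists were chosen with earlier results of these data known. Named genes were the 10, up to 4 per list with the largest absolute mean response, and, among genes with an SD of at least 1 log2, the 6 with the highest Pearson r to the mean centred profile of the 10 and 4 for CD14. SPI1, FCGR3A, CEACAM8, LTF, MMP8, ALPL, CXCR2 and the leading genes between the derivatives are outside that rule. Precision is limited by 1 array per condition. Alternatives were other scalings, log offset, background floors, a filter, probe averaging, no line term and leaving out each line.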

Additional observations from a re-analysis of the deposited data

Results flagged for a closer look

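The CD14 response was 6.97 log2 in HL60 and far from the other 3 lines, which lay between -0.07 and 0.69. The gap to the nearest line was 0.89 of the whole range. The ADGRE3 response of 6.78 in HL60 stood apart in the same way as deposited. The gap was 0.92 of the range, above 1.30 to 1.73 in the other lines. ADGRE3 values of SKM1 and K562 lay under the 75th percentile of background, however. Raised to it, ADGRE3 responses were 0.11 for SKM1 cells and -0.01 for K562 cells, beside 1.73 for MDSL and 5.21 for HL60. The other lines then lay further apart, and the gap was not recomputed. Chance alone marks about 1 in 20 such groups, and 10 genes were examined. Spike signals on the treated HL60 array were also the highest of the 10. With arrays scaled to them the HL60 responses of CD14 and ADGRE3 were 6.21 and 6.02.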

How the results depend on the processing

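The median response over the 4 lines stayed positive in all alternatives run, from 1.94 log2 upward with all lines, and leaving out 1 line in turn gave 1.56 to 2.92 log2 with 0 genes of the 10 called each time. Scaling to the hybridisation spikes called 6 of the 10, with means of 3.62 for FPR1, 2.19 for FPR2, 2.60 for ITGAM, 2.19 for CD36, 1.98 for CD68 and 2.66 for ADGRE3. It called 240 genes in all, in place of 7, and the cause was not tested. Fewer genes were called with no replicate block (1), the log offset (0), the floor at the background median (3) and the higher floor (0), and 0 to 5 without 1 line. With no replicate block, that is without the pairing by line, 0 of the 10 were called and 1 had an unadjusted p under 0.05, in place of 7. A floor at the 75th percentile of background, chosen after seeing the data, left 3.

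In K562 the count of genes 2-fold higher was 0 with log2(intensity + 32) and with either background floor, and the ADGRE3 difference turned to -0.0084 with the higher floor. For AZA resistant cells it was 1 with median centring, the offset and either floor. For OR21 resistant cells it was 3 with the offset and with the higher floor, and the count of lower genes was 0 with the offset. Of 490 recomputed single differences 10 changed sign, all with a background floor, 8 of them in K562. ADGRE3 in K562 was the 1 of these that was 2-fold as deposited. The median for OR21 resistant cells went from 0.82 to 0.46 and 0.39 with the floors and 0.51 with the offset, and that for AZA resistant cells from 0.71 to 0.06 with the higher floor. Median centring moved the median of all genes in HL60 from -0.05 to -0.22 log2 and spike scaling to -0.81. The HL60 genes 2-fold higher and lower numbered 1802 and 1962, then 1481 and 2574 when centred and 796 and 6721 with spike scaling, which left 8 of the 10 receptor genes 2-fold higher. Signal near background limits VNN2, ADGRE3 outside MDSL and treated HL60, TLR2 in MDSL, CD14 in MDSL and SKM1, and nearly all K562 values. It also limits the controls of CD36 and ITGAM in HL60 and of FPR1 in SKM1.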
